A study of Mus musculus with 6 samples.

Results

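The genes described here are 10 transcription factors of the myeloid lineage, *Spi1*, *Cebpa*, *Cebpb*, *Cebpd*, *Cebpe*, *Gfi1*, *Irf8*, *Klf4*, *Id2* and *Egr1*, measured in bone marrow cells sorted as LSK, that is without lineage markers and with Sca-1 and c-Kit, a fraction that holds haematopoietic stem cells and early progenitors. Every non-control probe that carries one of these gene names was taken, which gave 13 of 56605 probes for 10 of 37074 gene names. A probe was tested where 3 or more of the 6 arrays had it well above background. Of the 13 probes 12 passed, and each of the 10 genes had at least 1 of them. Control samples were *Atg5*w/w;VaviCre+ and the others, written *Atg5*f/f;*Vav*, were *Atg5*f/f;VaviCre+, with 3 samples per group, all C57BL/6 and taken between P6 and P8. Both groups carried the *Vav*-iCre transgene, which is active in haematopoietic cells, and *Atg5*, which encodes a protein needed to form autophagosomes, was flanked by loxP sites in the second group only. At this age the antibody mixture used to remove lineage cells held antibodies against Gr-1, Ter119, IL7R, B220, CD4 and CD8 but none against Mac-1, so cells with Mac-1 could enter the sort. The labels do not say whether a sample was 1 mouse or a pool, and p-values measure the spread between these samples, which may be technical. In sorted cells measured in bulk, fewer cells of a type and less RNA per cell cannot be told apart.

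PU.1, the product of *Spi1*, and C/EBPα, the product of *Cebpa*, open the myeloid programme in multipotent progenitors and turn on receptors for myeloid growth factors and genes of primary granules. From there IRF8 and KLF4 are needed for monocytes and dendritic cells, whereas GFI1 and C/EBPε carry cells through the neutrophil branch, where C/EBPε drives the genes of secondary granules. C/EBPβ and C/EBPδ act in emergency granulopoiesis and inflammatory gene expression, EGR1 is an immediate early factor that can favour macrophages, and ID2 binds E proteins and keeps them from DNA.

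The promoter bases of *Irf8*, *Cebpa* and *Cebpb* are shown because these 3 members were called higher. A link between bases and signal was not tested. RefSeq promoter windows of GRCm38.p6 matched 6 of the 10 members. Printed are the 250 bases before the start site, 5′ to 3′ in the direction of the gene, with matches to the gamma-interferon activation site TTCNNNGAA and to the TATA box TATAAA in capitals.
*Irf8*, chr8:120736108-120736357, plus strand: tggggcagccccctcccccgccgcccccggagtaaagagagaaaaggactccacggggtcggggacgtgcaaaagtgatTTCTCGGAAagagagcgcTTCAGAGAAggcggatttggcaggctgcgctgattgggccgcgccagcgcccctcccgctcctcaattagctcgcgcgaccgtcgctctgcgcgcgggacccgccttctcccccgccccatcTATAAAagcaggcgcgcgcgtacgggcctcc
*Cebpa*, chr7:35119043-35119292, plus strand: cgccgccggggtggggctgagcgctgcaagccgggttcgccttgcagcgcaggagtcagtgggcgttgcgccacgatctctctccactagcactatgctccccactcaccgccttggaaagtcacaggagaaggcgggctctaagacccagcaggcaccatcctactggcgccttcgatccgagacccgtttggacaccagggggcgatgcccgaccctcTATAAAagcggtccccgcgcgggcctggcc
*Cebpb*, chr2:167688665-167688914, plus strand: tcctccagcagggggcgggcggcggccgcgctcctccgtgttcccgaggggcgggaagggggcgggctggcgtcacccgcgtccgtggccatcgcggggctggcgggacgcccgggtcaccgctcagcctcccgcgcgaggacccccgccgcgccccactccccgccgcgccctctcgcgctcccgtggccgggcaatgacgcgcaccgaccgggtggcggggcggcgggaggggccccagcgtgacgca

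Of the 8 windows of the 6 members, the *Irf8* window shown was the only one with TTCNNNGAA. It held 2 matches on the sense strand, beginning 171 and 153 bases before the start site, and the motif occurs on either strand in 7.02% of all 32851 windows of this length. TATAAA began 31 bases before the start site in *Irf8* and 30 bases before it in *Cebpa*, and 12.4% of all windows hold it. The *Cebpb* window held neither, and its GC content was 81.6% against a median of 52.4% over all windows. Both strands were searched for 20 motifs in all. TTGCNNAA, a form of the C/EBP site that lies within the looser TTNCNNAA, matched 1 *Gfi1* window, 143 bases before the start site, and 9.56% of all windows. The GC box CCGCCC matched *Cebpb*, *Id2*, *Irf8* and *Klf4*, the CCAAT box matched *Id2* and *Irf8*, the EGR site GCGGGGGCG and the E-box CACGTG matched *Klf4*, and the KLF site GNGGGNG matched all 6 members, with shares of all windows of 32.7%, 33.8%, 2.57%, 6.02% and 60.3%. No member window held the C/EBP palindrome TTGCGCAA (0.164% of all windows), TTCCNGGAA, which is a case of TTCNNNGAA (0.913%), the mixed C/EBP and CRE site TGACGCAA (0.438%), the PU.1 site GAGGAAGT (2.44%) or the ETS core GGAAGT within it (19.7%), the GFI1 sites AATCACAG (1.25%) and AANCACNGC (3.60%), the AP-1 site TGACTCA (4.46%), the CRE TGACGTCA (1.55%), the core of the interferon-stimulated response element (2.98%) or the serum response element (0.0609%).

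Signal is given as log2 of a probe's intensity minus its array's 75th percentile, so that values compare arrays but not probes. The only *Atg5* probe was brighter in the group meant to lack it, by 0.54 (standard error 0.12, adjusted p = 0.0209 in limma). Whether it lies in the deleted part was not determined, and every direction rests on the labels. All arrays shared 1 slide and 1 scan, control arrays in its row 1 and the others in row 2, so row and genotype cannot be told apart. Of the genes of the LSK gate, *Kit* was well above background on all arrays and differed by −0.38 (adjusted p = 0.0563), its other 2 probes fell by 0.62 and 0.67 on the log2 scale, and *Ly6a*, which encodes Sca-1, was higher by 1.57 (adjusted p = 0.00623). Of the 7 stromal genes tested, the collagen genes *Col1a1* and *Col1a2*, *Sparc*, *Dcn* and *Pdgfrb* were higher on control replicates 2 and 3 than on control replicate 1, with 3.47 and 2.90 against −0.90 for *Col1a2*, while *Cxcl12* was lower on both, with −2.19 and −3.12 against −0.59, and *Lepr* was higher on one and lower on the other.

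Between the groups, 3 of the 10 members rose in *Atg5*f/f;*Vav* LSK cells, *Irf8*, *Cebpa* and *Cebpb*, and none fell, at an adjusted p under 0.05 in limma with Benjamini-Hochberg adjustment over all probes tested. Among all 20778 genes tested 18.7% were called higher and 15.3% were called lower. The members' share is thus 3 of 10 against 18.7%, and no test was made of this difference. The median log2 fold change was −0.03 over the 10 members and −0.03 over all genes tested. *Gfi1* and *Egr1* had the lowest estimates, and the estimates of *Spi1*, *Cebpd* and *Klf4* were close to 0. At an unadjusted p under 0.05, *Irf8*, *Cebpa* and *Cebpb* passed in the methods' t-test, as did 42.3% of all genes in either direction. After adjustment no gene did.

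*Irf8* had the largest difference of the members. Its representing probe (mm9 chromosome 8, 123280324 to 123280383) gave 0.70, 1.48 and 1.94 in control and 2.88, 2.64 and 3.05 in *Atg5*f/f;*Vav* samples. All *Atg5*f/f;*Vav* values lay above all control values, as was the case for 29.6% of all genes, and the control arrays spread over a wider range. The log2 fold change was 1.49 (standard error 0.31, 95% interval 0.76 to 2.21, adjusted p = 0.0179 in limma), a 2.80-fold higher signal. A second probe, placed on an Ensembl transcript (mm9 chromosome 8, 123267009 to 123267068), gave −3.02, −1.99 and −2.19 in control and −1.45, −1.73 and −1.41 in *Atg5*f/f;*Vav* samples. It differed in the same direction, by 0.87 (standard error 0.27, adjusted p = 0.0450), and the mean over both probes was 1.18.

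*Cebpa* was measured by 1 probe (mm9 chromosome 7, 35906517 to 35906576), with −1.62, −1.47 and −0.95 in control and −0.19, −0.66 and −0.46 in *Atg5*f/f;*Vav* samples. The groups did not overlap, which holds in this direction for 29.6% of all genes. Control replicate 3 was the nearest to the other group, as it was for *Irf8*. The log2 fold change was 0.91 (standard error 0.21, 95% interval 0.42 to 1.41, adjusted p = 0.0214). For *Cebpb* (mm9 chromosome 2, 167515828 to 167515887) the control arrays gave 1.32, 1.39 and 1.48 and the *Atg5*f/f;*Vav* arrays 1.91, 1.94 and 2.21. Both groups were narrow and lay apart. The log2 fold change of *Cebpb* was 0.62 (standard error 0.13, 95% interval 0.32 to 0.92, adjusted p = 0.0174).

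**Figure D1:**
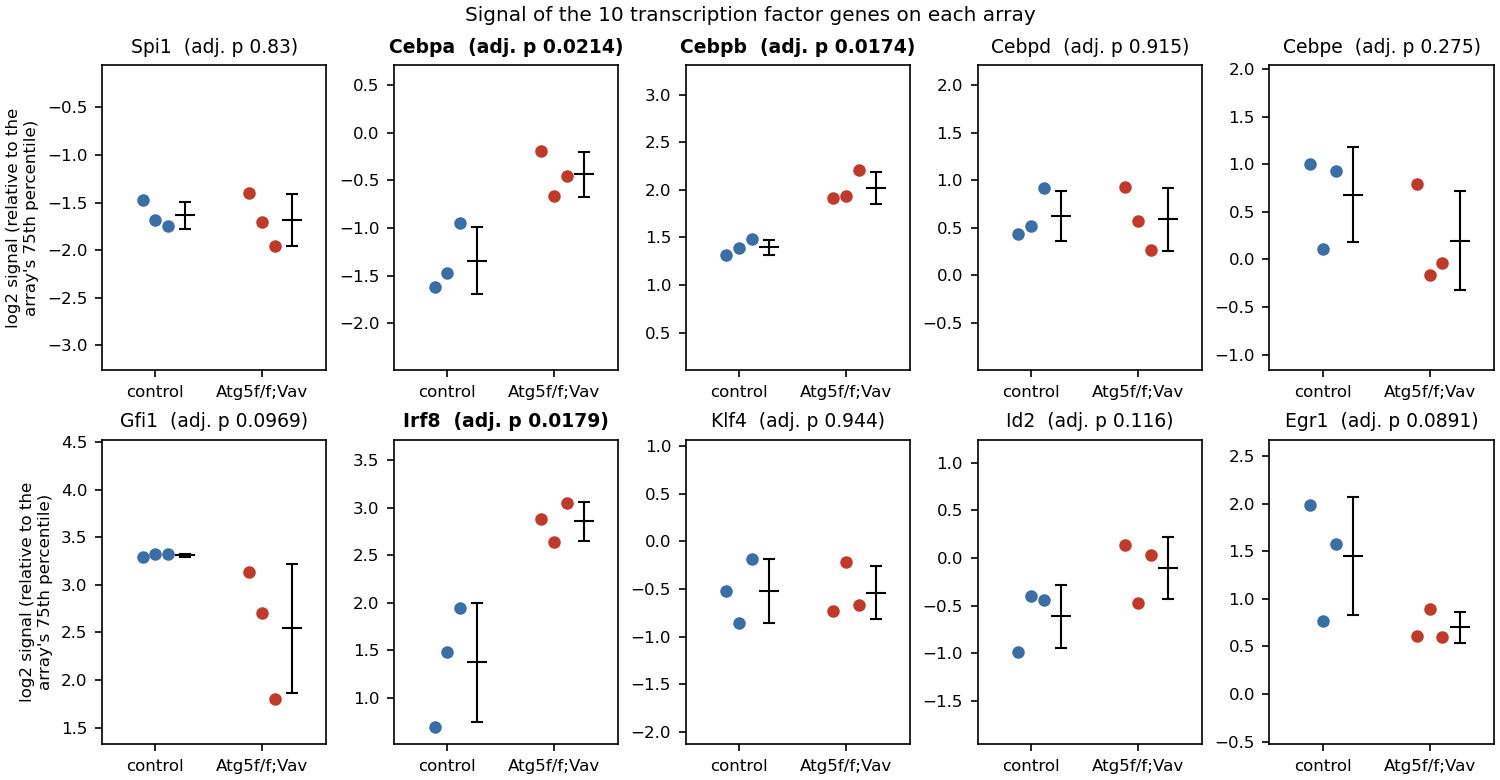
Signal of each member on each array, as log2 relative to the array's 75th percentile, with control arrays in blue and *Atg5*f/f;*Vav* arrays in red, and the mean ± SD (n = 3) beside the points. Each axis spans the same number of log2 units. The groups lie apart for *Irf8*, *Cebpa* and *Cebpb*, whose titles are bold, and for *Gfi1*. Of all genes, 29.6% lie apart and higher in *Atg5*f/f;*Vav* arrays and 26.3% apart and lower.

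These 3 calls needed both control replicate 1 and control replicate 2. Without control replicate 1 or without control replicate 2 no member passed, while the differences kept their direction, at 1.15 and 1.54 for *Irf8*, 0.77 and 0.85 for *Cebpa* and 0.58 and 0.62 for *Cebpb*. The adjusted p was then 0.0630 and 0.0719 for *Irf8*, 0.0771 and 0.0830 for *Cebpa*, and 0.0727 and 0.0734 for *Cebpb*. Over the 6 fits with 1 array left out it ranged from 0.0273 to 0.0719 for *Irf8*, from 0.0273 to 0.0830 for *Cebpa* and from 0.0206 to 0.0734 for *Cebpb*. The background fell with them, since only 0.972% of all genes passed in either direction without control replicate 1 and 0.78% without control replicate 2. Unadjusted p-values from limma were under 0.05 for these 3 members without control replicate 1 and for 5, with *Cebpe* and *Egr1* added, without control replicate 2, against 35.7% and 35.3% of all genes. An exact permutation test of 3 arrays against 3 gave p = 0.1 for each of the 3 genes, the smallest value that this design allows. Every gene whose groups do not overlap gets this value, which were 29.6% of all genes in the higher and 26.3% in the lower direction.

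The other C/EBP genes did not pass the threshold. *Cebpd* (mm9 chromosome 16, 15888459 to 15888518) gave 0.43, 0.52 and 0.92 in control and 0.93, 0.57 and 0.27 in *Atg5*f/f;*Vav* arrays, a difference of −0.03 (95% interval −0.53 to 0.46, adjusted p = 0.915). *Cebpe* (mm9 chromosome 14, 55329200 to 55329259) gave 1.0, 0.11 and 0.93 in control and 0.79, −0.16 and −0.04 in *Atg5*f/f;*Vav* arrays. The 2 groups overlapped for both genes, with control replicate 2 low for *Cebpe*. The difference of *Cebpe* was −0.48 (95% interval −1.26 to 0.29, adjusted p = 0.275).

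*Spi1* was read by a probe whose ends lie on mm9 chromosome 2 at 90939665 and 90953452. The values were −1.47, −1.68 and −1.74 in control and −1.40, −1.70 and −1.95 in *Atg5*f/f;*Vav* arrays. The control values lay within the range of the other group. The difference was −0.05 with a 95% interval of −0.44 to 0.34 (adjusted p = 0.830).

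*Gfi1*, which encodes a repressor needed for neutrophils, was narrow in control, at 3.29, 3.32 and 3.32, and wide in *Atg5*f/f;*Vav* arrays, at 3.13, 2.70 and 1.80 (mm9 chromosome 5, 108145719 to 108145778). Every *Atg5*f/f;*Vav* array lay below every control array, as was the case for 26.3% of all genes, while 29.6% lay above. The difference of −0.76 (standard error 0.31, 95% interval −1.50 to −0.02) had an adjusted p of 0.0969 in limma. It was −0.39 without *Atg5*f/f;*Vav* replicate 3, and it passed, at −1.05 (adjusted p = 0.0315), without *Atg5*f/f;*Vav* replicate 1. Over the 6 fits with 1 array left out the adjusted p ran up to 0.204. A second *Gfi1* probe nearer the start of the transcript was well above background on 2 control arrays and on no *Atg5*f/f;*Vav* array and was not tested.

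*Egr1* gave 1.99, 0.77 and 1.58 in control and 0.61, 0.89 and 0.60 in *Atg5*f/f;*Vav* arrays. Control replicate 2 fell within the range of the other group. The difference was −0.75 (standard error 0.30, 95% interval −1.46 to −0.04, adjusted p = 0.0891). It passed with normexp background correction, with an adjusted p of 0.0408, and with the 75th percentile taken over probes well above background on all arrays, with 0.0427, within a range of 0.0408 to 0.231 over all alternatives. Of the 12 immediate early genes tested, a class that responds fast to stimulation, *Btg2* and *Nr4a1* fell, by 0.92 and 0.84 on the log2 scale, none rose, and the median was −0.20 against −0.03 over all genes tested. Of all genes 15.3% were called lower and 18.7% higher. *Fos* on the control arrays, at 2.73, 0.77 and 2.58, was lowest on replicate 2, as was *Egr1* among these arrays.

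*Klf4* (mm9 chromosome 4, 55540833 to 55540892) gave −0.52, −0.86 and −0.18 in control and −0.73, −0.22 and −0.67 in *Atg5*f/f;*Vav* arrays, a difference of −0.02 (95% interval −0.53 to 0.49, adjusted p = 0.944). *Id2* gave −0.99, −0.40 and −0.44 in control and 0.14, −0.47 and 0.03 in *Atg5*f/f;*Vav* arrays at its representing probe (mm9 chromosome 12, 25778904 to 25778963). Both genes overlapped between the groups. The difference of *Id2* was 0.51 (95% interval −0.02 to 1.04, adjusted p = 0.116), but the second *Id2* probe (mm9 chromosome 12, 25780080 to 25780139), placed on another transcript record, differed by −0.28 (adjusted p = 0.418). The 2 probes of *Id2* thus disagreed in direction, and neither passed.

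**Figure D2:**
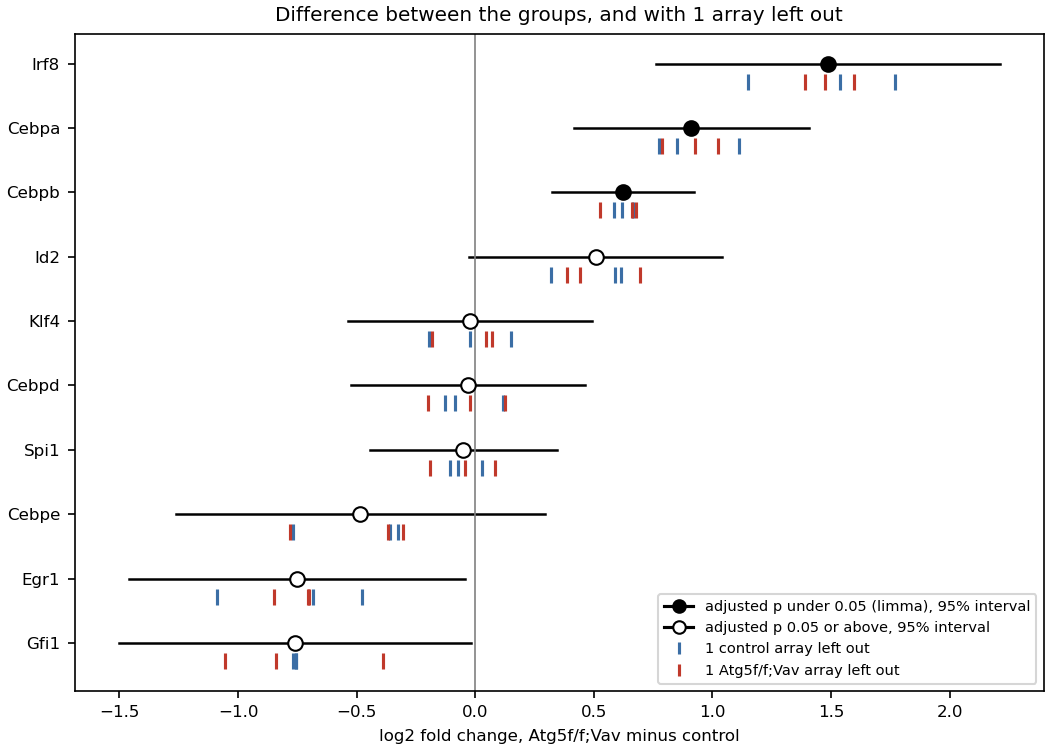
Log2 fold change of each member (*Atg5*f/f;*Vav* minus control) with its 95% interval from limma; filled points passed an adjusted p of 0.05, and the ticks beneath give the value with 1 control array (blue) or 1 *Atg5*f/f;*Vav* array (red) left out. *Irf8*, *Cebpa* and *Cebpb* lay above 0 with any array left out and *Cebpe*, *Egr1* and *Gfi1* below it, whereas *Spi1*, *Cebpd* and *Klf4* fell on both sides.

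The likeness of patterns was measured as the root mean square difference between array-centred log2 signals over the 6 arrays, among 18381 other genes that were well above background on all of them. For *Irf8* the nearest genes were *Cx3cr1*, a chemokine receptor of monocytes, at 0.11, and *H2-Ab1*, a chain of MHC class II, at 0.12. *Cx3cr1* gave −2.85, −2.17 and −1.45 in control and −0.49, −0.69 and −0.46 in *Atg5*f/f;*Vav* arrays. Its control arrays stood in the same order as for *Irf8*, which choosing the nearest gene over these same arrays favours. The nearest genes to *Cebpb* were *Ptges3* and *Rrp7a*, both at 0.02, and the nearest to *Cebpa* was *Hsdl1*, at 0.08. The scale of each gene enters this measure, so genes of small range lie closer.

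Among 23 tested relatives of the members, 6 rose and 3 fell, with a median of −0.12. Over all genes tested 18.7% were called higher and 15.3% lower. No list count was tested against these shares. In the IRF family *Irf7*, which drives type I interferon genes, rose by 2.17 (standard error 0.21, adjusted p = 0.00606), and *Irf1* and *Irf9*, named here after their values were seen, rose by 1.51 and 0.74. *Irf2* fell by 0.50 on the log2 scale. *Irf3*, *Irf4* and *Irf5* did not pass (adjusted p = 0.367, 0.628 and 0.995). Called genes of the family thus lay in both directions, as did those among all genes tested. *Gfi1b*, the erythroid and megakaryocytic paralogue of *Gfi1*, gave 1.61, 1.09 and 1.66 in control and 2.89, 3.76 and 4.40 in *Atg5*f/f;*Vav* arrays and rose by 2.23 (standard error 0.37, adjusted p = 0.0152), against −0.76 for *Gfi1*. Among the *Atg5*f/f;*Vav* arrays the order of *Gfi1b* was the reverse of that of *Gfi1*. Among KLF genes *Klf1*, the erythroid factor, rose by 2.95 and *Klf10* fell by 0.60 on the log2 scale. *Cebpg*, the C/EBP relative without an activation domain, differed by −0.08 (adjusted p = 0.547). Without control replicate 1 or 2 the relatives counted 2 higher and 0 lower, and the count lower was 1 without control replicate 3 or *Atg5*f/f;*Vav* replicate 2 and 6 without *Atg5*f/f;*Vav* replicate 1.

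Of 25 partners and upstream regulators tested, 2 rose and 2 fell, where 18.7% and 15.3% of all genes did, with a median of 0.07. *Gata1*, the erythroid factor that opposes PU.1, gave 0.87, 0.38 and 0.95 in control and 2.90, 3.73 and 4.56 in *Atg5*f/f;*Vav* arrays, a rise of 3.0 (standard error 0.40, adjusted p = 0.0121). *Trib2*, which encodes a pseudokinase that directs C/EBPα to degradation, rose by 2.98 (standard error 0.35, adjusted p = 0.00922), while its relative *Trib1* gave −0.27 (adjusted p = 0.621). *Ets1* and *Nab2*, the latter a corepressor of EGR proteins, fell by 0.97 and 0.85 on the log2 scale. None of *Runx1*, *Cbfb* and *Myb*, which act upstream of *Spi1* and *Cebpa*, passed, at −0.23, 0.07 and 0.14, and neither did the GFI1 corepressors *Kdm1a*, *Rcor1*, *Hdac1* and *Hdac2*, at 0.19 to 0.24. Of these partners 1 was called higher without control replicate 1 and 0 without control replicate 2, and 0 were called lower without any 1 of the control arrays or without *Atg5*f/f;*Vav* replicate 2.

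Receptors and targets of the members were read next, beside the 18.7% of all genes called higher and the 15.3% called lower. Of 9 myeloid cytokine receptors, *Csf2rb* and *Csf2rb2*, near-identical genes for the β chains of the GM-CSF and IL-3 receptors whose probes may cross-hybridise, rose by 0.68 and 0.66, and the 3 other *Csf2rb* probes gave 0.60, 0.16 and −0.48. *Csf1r* (0.33, adjusted p = 0.138), *Csf2ra* (−0.36, adjusted p = 0.0651) and *Csf3r* (−0.32, adjusted p = 0.0949) did not pass. *Flt3*, a receptor of early progenitors, had the largest difference of the 9 receptors, −0.87 (adjusted p = 0.0675), and did not pass at its representing probe, while its dimmer second probe fell by 0.85 on the log2 scale (adjusted p = 0.0138). Of 17 early myeloid targets 4 rose and 1 fell, with a median of 0.18. The 4 were *Ctsg* (1.91), *Mpo* (1.0), *Fcgr3* (0.89) and *Prtn3* (0.89), and all but *Fcgr3* encode proteins of the primary granule. *Elane*, another gene of that granule, gave −0.21 (adjusted p = 0.589). *Lyz2* fell by 0.86 on the log2 scale (adjusted p = 0.0484) at its representing probe, and its other probe gave −0.51 (adjusted p = 0.326). No receptor and no early target was called higher in limma without control replicate 1 or 2, 1 receptor was called lower without *Atg5*f/f;*Vav* replicate 1, and early targets called higher were 0, 2 or 1 without *Atg5*f/f;*Vav* replicate 1, 2 or 3. *Lyz2* did not pass without any 1 of the control arrays or without *Atg5*f/f;*Vav* replicate 2.

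Most of the late neutrophil genes that were called fell, while the called genes of monocytes and dendritic cells rose. Of 14 tested genes of secondary and tertiary granules and late neutrophils, 10 fell and 1 rose, with a median of −1.31. The shares of all genes were 15.3% lower and 18.7% higher. *Retnlg* gave 1.02, −0.64 and 0.24 in control and −2.03, −2.20 and −1.52 in *Atg5*f/f;*Vav* arrays and fell by 2.12 on the log2 scale (standard error 0.41, adjusted p = 0.0167), *Mmp8* fell by 1.61 and *S100a8* by 1.38. Control replicate 1 was the highest array for each of these 3 and the lowest for *Irf8*. *Ly6g* rose by 0.71, against the rest of its list, and belongs to a family of similar genes. *Itgam*, which encodes the Mac-1 chain that the sort did not gate out, gave 5.24, 4.98 and 4.62 in control and 4.01, 4.63 and 4.33 in *Atg5*f/f;*Vav* arrays (−0.62, adjusted p = 0.0618). The summed linear signal of the neutrophil list, relative to the 75th percentile, was 113.3 to 208.1 in control and 59.7 to 85.9 in *Atg5*f/f;*Vav* arrays. The count lower was 0, 2 or 6 without control replicate 1, 2 or 3 and 4 or 6 without *Atg5*f/f;*Vav* replicate 2 or 3, and *Ly6g* did not pass without control replicate 1 or 2.

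Of 14 tested monocyte, macrophage and dendritic cell genes 8 rose and none fell, where 18.7% and 15.3% of all genes did, with a median of 0.60. The summed linear signal of this list overlapped, at 182.3 to 211.5 in control and 190.5 to 212.6 in *Atg5*f/f;*Vav* arrays. *Siglech*, the brightest gene of the list, gave 7.28, 7.39 and 7.10 in control and 6.97, 7.24 and 7.15 in *Atg5*f/f;*Vav* arrays. It thus weighed most in these sums, and sums without it were not made. *Siglech* differed by −0.14 (adjusted p = 0.435 in limma) and *Cst3* by 0.27 (adjusted p = 0.102). *Ly86*, a partner of a Toll-like receptor relative, gave −2.20, −1.38 and −0.63 in control and 0.33, 0.05 and 0.77 in *Atg5*f/f;*Vav* arrays and rose by 1.79 (standard error 0.39, adjusted p = 0.0196). *Mpeg1* rose by 1.77 and *Cd74*, the invariant chain of MHC class II, by 1.69, and a second, dimmer *Mpeg1* probe gave 0.56 (adjusted p = 0.211). Of genes of mature macrophages, *Adgre1* (−0.31), *Cd68* (0.03) and *C1qb* (0.24) did not pass, and *Mrc1* and *C1qa* were well above background on fewer than 3 arrays. Without control replicate 1 or 2 the count higher was 1 or 0. The lists were chosen with earlier results of these arrays known.

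**Figure D3:**
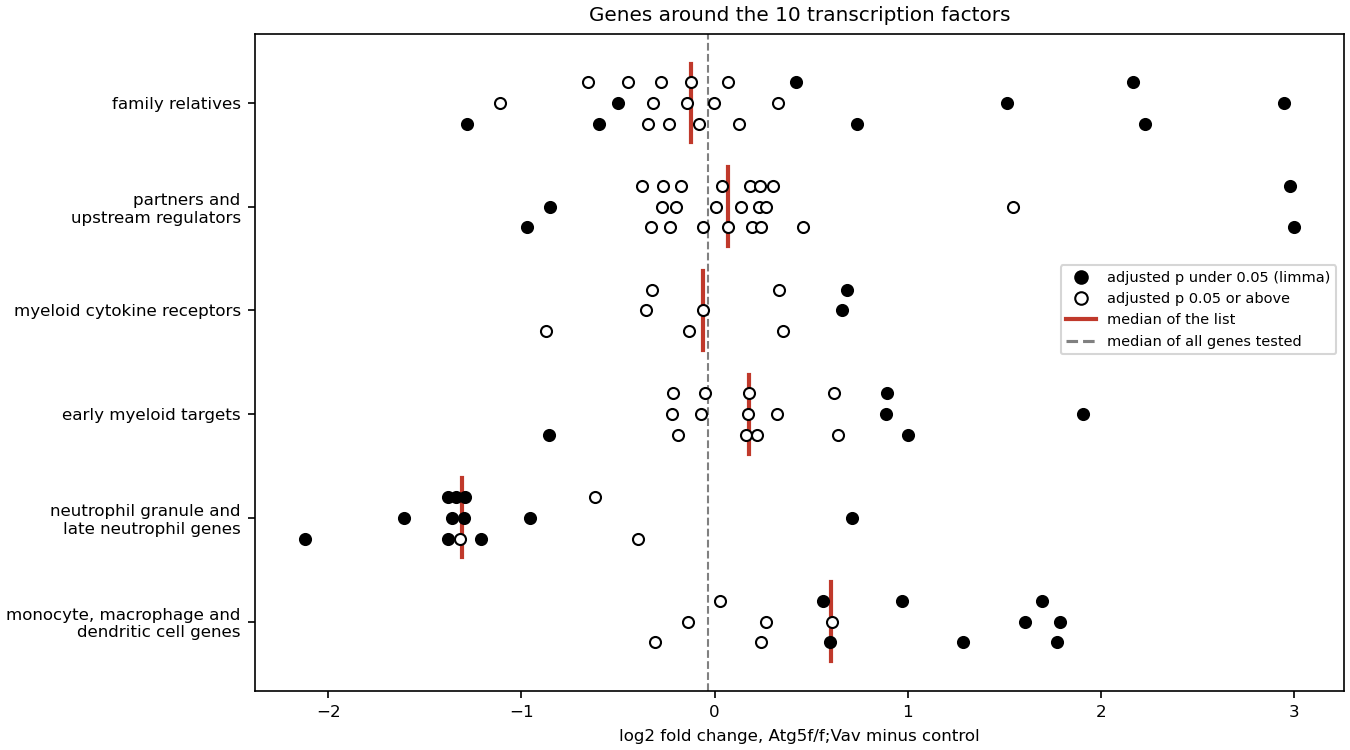
Log2 fold change (*Atg5*f/f;*Vav* minus control) of each tested gene of 6 lists around the members; filled points passed an adjusted p of 0.05 in limma, red bars are list medians and the dashed line is the median of all genes tested, −0.03. The neutrophil list lay mostly below 0, with a median of −1.31, and the monocyte list mostly above it, with a median of 0.60.

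**Figure D4:**
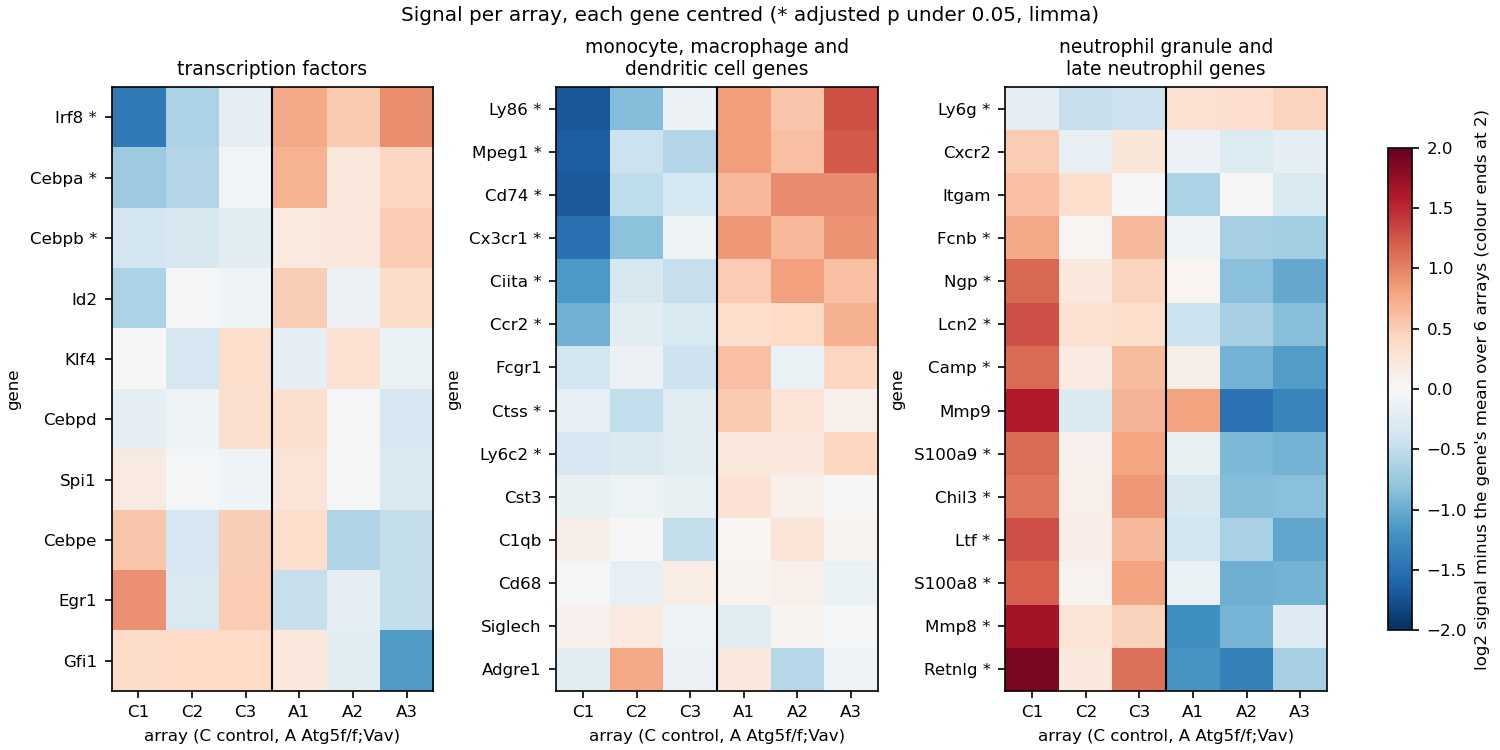
Log2 signal of each gene on each array minus that gene's mean over the 6 arrays (colour scale from −2 to 2), for the members and for the monocyte and neutrophil lists, with an asterisk where the adjusted p in limma was under 0.05. Control replicate 1 has the lowest *Irf8* and *Ly86* and the highest *Retnlg* and *Mmp8*.

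Markers of other cells also differed between the groups, and their part in the members' differences was not tested. The counts below stand beside 18.7% of all genes called higher and 15.3% called lower. The stromal list had a summed signal of 10.2 to 40.9 in control and 6.85 to 9.62 in *Atg5*f/f;*Vav* arrays, with 3 of 7 tested genes lower. Of these, *Col1a1* was well above background on 3 control and 0 *Atg5*f/f;*Vav* arrays. The erythroid list had 224.3 to 507.8 against 79.3 to 123.4. *Hba-a1*, its brightest gene, weighed most in these sums, and sums without it were not made. It gave 8.90, 8.84 and 7.72 in control and 6.0, 6.42 and 6.28 in *Atg5*f/f;*Vav* arrays. Of the list's 10 genes 4 rose, *Car1*, *Klf1*, *Tfrc* and *Epor*, while the globin genes *Hba-a1* and *Hbb-b1*, *Alas2* and *Slc4a1* fell. The mast cell, basophil and eosinophil list had 7.11 to 13.4 against 18.0 to 32.9, with 2 of 8 higher and 1 lower. Besides *Gata1*, *Ms4a2* rose by 2.96 (adjusted p = 0.00689 in limma), and *Prss34* fell by 1.25 on the log2 scale (adjusted p = 0.0189). Without *Gata1*, which is also an erythroid factor and alone accounted for 7.49 to 23.7 of the sums in *Atg5*f/f;*Vav* arrays, the sums overlapped, at 5.81 to 11.5 in control and 6.76 to 10.5 in *Atg5*f/f;*Vav* arrays, a check made after the values were seen. For B cells the sums were 10.5 to 15.2 and 13.9 to 24.2, with 1 of 9 higher, for T and NK cells 9.70 to 14.5 and 11.4 to 15.5, with none of 6 passing in limma, and for megakaryocytes 7.72 to 9.25 and 6.49 to 6.94, with 1 of 7 higher and 3 lower. The B cell gene called, *Cd79a*, was well above background on 1 control and 3 *Atg5*f/f;*Vav* arrays. *Ppbp*, a megakaryocyte gene called lower, was so on 3 control and 0 *Atg5*f/f;*Vav* arrays. *Cd79a*, *Ppbp* and *Col1a1* thus passed the filter only through the group where they were brighter. The T cell genes *Cd3g* and *Cd2* were well above background on fewer than 3 arrays. Of the lineage cocktail's targets, *Cd4* and *Il7r* each differed by −0.02, and *Cd8a* was well above background on fewer than 3 arrays.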

How the data were processed

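RNA of LSK cells, from 3 samples per group, was hybridised on 1-colour Agilent microarrays with 60-mer probes placed on mm9. The authors deposited the intensity of every spot, which Feature Extraction 12.0.3.1 (version per the submitters' processing notes) had corrected for background without scaling arrays to each other. They also deposited a table of normalised signal, in which intensity is divided by the 75th percentile of an array over all its spots, and this table served as an alternative. Here intensity was divided by the 75th percentile of its array over the 59305 non-control spots and log2 was taken. Between 64 and 81 spots per array were flagged as outliers and dropped, no spot was saturated, and spots of a probe were averaged. The 32074 probes that were well above background on 3 or more of 6 arrays entered 1 fit (R 4.3.3, limma 3.58.1, eBayes after lmFit, 2-sided, Benjamini-Hochberg, threshold 0.05). The 75th percentile of intensity was 651.7 to 746.2 on control and 620.3 to 881.4 on *Atg5*f/f;*Vav* arrays, and the number of arrays limits the precision. The share of non-control spots well above background did not overlap, at 59.4% to 59.9% on control and 53.6% to 56.7% on *Atg5*f/f;*Vav* arrays. It was lowest on *Atg5*f/f;*Vav* replicate 3. A gene is represented by its tested probe with the highest mean signal. The fit was run on simulated arrays with independent values and few changed probes. That setting is simpler than these data, so it does not show how far the calls hold here.

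Members and lists were chosen with earlier results of these data known. Named genes are the members with every probe, *Atg5*, the 3 largest rises and falls past the threshold in each list, the LSK gate and lineage genes, and the 2 nearest patterns of the members described most, and some list genes are not reported here. Alternatives were normexp (offset 50), quantile normalisation, scaling on detected probes, the deposited values, no filter, a filter on all 6 arrays, outlier spots kept, an intensity trend, the methods' t-test (Student's, unpaired), a replicate block, the mean of a gene's probes and each array left out. No block for slide or scan could be fitted, since there was 1 of each. Promoter windows are from RefSeq, GRCm38.p6.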

Additional observations from a re-analysis of the deposited data

How the results depend on the processing

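Members called higher stayed at 3, or 2 with no filter on dim probes, under the alternatives other than the methods' t-test with Benjamini-Hochberg adjustment, which called 0 members, 0 probes higher and 0 lower (13541 probes passed unadjusted), and the fits with 1 array left out, which gave 0 to 3. Members called lower went from 0 to 1 with normexp (*Egr1*), with scaling on probes detected on all arrays (*Egr1*) and over 0 to 1 with 1 array left out. Of all probes, 5540 were higher and 5484 lower. With 1 array left out the counts were 155 to 4962 higher and 96 to 5342 lower. With no filter they were 2324 and 2214. Scaling on detected probes moved the median over probes from −0.06 to −0.27, and 3369 were higher and 10089 lower. Under that scaling *Irf8*, *Cebpa* and *Cebpb* stood at 1.28, 0.71 and 0.42, family relatives called lower rose from 3 to 6, partners from 2 to 4, receptors from 0 to 3 and early targets from 1 to 2.

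With 1 array left out, relatives ranged over 2 to 6 higher and 0 to 6 lower, partners over 0 to 3 and 0 to 2, receptors over 0 to 2 and 0 to 1, early targets over 0 to 5 and 0 to 1, neutrophil genes over 0 to 1 and 0 to 10 and monocyte genes over 0 to 8 higher. Reversed differences were those of *Spi1* (0.0887 with quantile normalisation, −0.191 to 0.0842 with 1 array left out), *Cebpd* (−0.201 to 0.127 with 1 array left out) and *Klf4* (0.0390 with quantile normalisation, −0.194 to 0.150 with 1 array left out). The cause was not tested. Samples with the same replicate number correlated at −0.07, 0.19 and 0.11 in their deviations from the group means. Samples with different numbers correlated at −0.30 to 0.13. With 3 arrays per group the deviations depend on each other, so this check cannot decide whether the numbers pair the samples. With a replicate block 5261 probes were higher and 4912 lower, and 3 members rose, *Irf8* at an adjusted p of 0.0251.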
